A study of Mus musculus with 36 samples.

Results

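Guanylate-binding proteins (GBPs) are large GTPases of the dynamin superfamily that interferons induce in most cells. The family was taken here as the rows of the deposited expression table with the symbols Gbp2, Gbp3, Gbp4, Gbp5, Gbp6, Gbp7, Gbp8, Gbp9, Gbp10 and Gbp11. All 10 were found among the 24127 genes of the table. Gbp2b, the mouse gene also called Gbp1, is not among these symbols, and its values are given beside them.

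GBPs assemble on the membranes of vacuoles that hold intracellular parasites and bacteria, and on bacteria that have escaped into the cytosol. They work with the immunity-related GTPases (IRGs), and they expose microbial ligands to the inflammasomes that activate caspase-1 and caspase-11. Their genes are textbook targets of the interferon pathways: type I interferon acts through ISGF3, a transcription factor complex that binds the interferon-stimulated response element (ISRE), and interferon gamma acts through the gamma-activated site (GAS). IRF1, itself induced by interferons, also binds ISRE-like sequences. Dendritic cells make type I interferon when RIG-I, a cytosolic helicase, detects viral RNA.

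Expression was measured by RNA sequencing in dendritic cells grown from mouse bone marrow with the cytokine GM-CSF and selected for the integrin CD11c, from mice of the C57BL/6 strain. The cells came from LGP2 knockout mice (Dhx58-/-, here KO) or from wild-type C57BL/6J mice (WT). LGP2 is an RNA-binding helicase related to RIG-I that lacks its signalling domains. KO and WT cells were transfected with 20 ng of PAMP RNA, a poly-U/UC RNA of hepatitis C virus that RIG-I recognizes, or kept as time-matched mock cells. They were collected after 1, 3 and 6 h. The 12 groups are therefore KO with PAMP RNA, WT with PAMP RNA, KO mock and WT mock at each of the 3 times, and each held 3 libraries. The labels describe the mock cells both as mock-treated and as untreated, so what transfection itself adds to a response cannot be told apart. The comparisons ask how the family responds to the agonist over time, and whether that response differs between the genotypes.

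Reads in genes numbered 4740909 to 14255730 in the 36 libraries. Libraries of the same group correlated with r of at least 0.989 (Pearson, log2 scale). Itgax, the gene of CD11c, ranged from 2354 to 3441 normalized counts and the antigen-presentation gene Cd74 from 13306 to 25222. The dendritic markers Flt3 and Cd209a reached at most 25.9 and 24.9 normalized counts. Macrophage genes were present too, with Csf1r at 3784 to 10376. Of the listed T- and NK-cell genes, Cd3e, Cd3d, Ncr1 and Nkg7 had a median of 0. Cd8a and Klrb1c had medians of 20.3 and 7.69 normalized counts. The highest of the listed neutrophil genes, S100a8, ranged from 67.9 to 125 normalized counts. Dhx58, the targeted gene, had 137 to 1012 normalized counts in KO cells with PAMP RNA, 91.9 to 3066 in WT cells with PAMP RNA, 108 to 808 in KO mock cells and 83.6 to 362 in WT mock cells. In mock cells it was higher in KO than in WT libraries by 1.19 (log2, SE 0.08, limma adjusted p = 8.35e-17), which goes against the KO label, while its smaller response in KO cells goes with the label. Which exons these reads cover cannot be seen in a table of gene totals, and the antisense gene Dhx58os overlaps Dhx58. KO and WT below mean the libraries labelled so.

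The members lie in 2 clusters of the GRCm38 genome. On the plus strand of chromosome 3 stand Gbp5 (142493978 to 142522344), Gbp7 (142530342 to 142550149), Gbp3 (142560026 to 142573209), Gbp2b (142594847 to 142619179) and Gbp2 (142620602 to 142638008). On the minus strand of chromosome 5 stand Gbp8 (105014150 to 105139540), Gbp9 (105077630 to 105139539), Gbp4 (105115767 to 105139586), Gbp10 (105215699 to 105239533), Gbp6 (105270702 to 105293698) and Gbp11 (105323042 to 105346472). The annotated spans of Gbp8, Gbp9 and Gbp4 overlap. GENCODE lists Gbp11 as a polymorphic pseudogene and the other 9 members as protein-coding.

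How far reads can be assigned to 1 member was measured on the annotated transcripts. Of all 100-base stretches of Gbp10, 60.1% also occurred in Gbp6, and 36.3% of those of Gbp6 occurred in Gbp10. Gbp11 shared 5.13% and Gbp8 4.39% of their stretches with any other family gene. The remaining members shared at most 1.65%, and Gbp2 and Gbp5 shared none. The counts of Gbp10 and Gbp6 can therefore hold reads of each other, and the labels do not state how such reads were treated. The kit does not mark strand as far as the labels say, so reads of overlapping genes on the other strand, such as Mir6381 within Gbp2, cannot be told apart from the member's own. On the members' own strand, Gm43302 overlaps both Gbp10 and Gbp6, and Gm43802 overlaps Gbp7. The stretches were compared within the family only, so what these genes share with the members was not measured.

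The RefSeq promoter table (GRCm38.p6) held the starts of 4 members, all on chromosome 3. Their 250 bases before the start are printed because these genes rose together, and because the ISRE and GAS are the sequences through which interferons act on the family. The stretches are Gbp2 at chr3:142620413-142620662, Gbp3 at chr3:142559794-142560043, Gbp5 at chr3:142496684-142496933 and Gbp7 at chr3:142530086-142530335, all on the plus strand, 5′ to 3′. Capitals mark matches to the ISRE core, which is GAAA and GAAA with any 2 bases between them (TTTC and TTTC when read on the other strand), and to the GAS, the palindrome TTCNNNGAA.
Gbp2: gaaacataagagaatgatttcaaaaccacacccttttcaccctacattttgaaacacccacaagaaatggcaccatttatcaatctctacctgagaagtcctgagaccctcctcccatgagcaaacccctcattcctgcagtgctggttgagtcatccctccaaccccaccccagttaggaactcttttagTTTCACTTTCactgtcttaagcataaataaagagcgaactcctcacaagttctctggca
Gbp3: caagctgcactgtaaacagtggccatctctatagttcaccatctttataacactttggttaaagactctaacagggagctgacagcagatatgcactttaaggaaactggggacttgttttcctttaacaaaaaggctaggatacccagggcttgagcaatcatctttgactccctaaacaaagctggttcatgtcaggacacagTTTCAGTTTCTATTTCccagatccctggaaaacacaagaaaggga
Gbp5: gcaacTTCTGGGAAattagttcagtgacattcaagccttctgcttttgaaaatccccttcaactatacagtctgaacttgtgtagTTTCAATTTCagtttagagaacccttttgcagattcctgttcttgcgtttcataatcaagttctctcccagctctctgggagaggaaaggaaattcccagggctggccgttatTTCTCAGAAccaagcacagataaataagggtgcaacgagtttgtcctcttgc
Gbp7: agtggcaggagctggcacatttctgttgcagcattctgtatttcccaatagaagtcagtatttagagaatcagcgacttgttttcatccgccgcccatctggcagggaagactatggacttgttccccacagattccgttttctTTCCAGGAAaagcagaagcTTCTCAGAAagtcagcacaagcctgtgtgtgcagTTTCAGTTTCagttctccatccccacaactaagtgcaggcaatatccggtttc

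All 4 stretches held an ISRE core, and those of Gbp5 and Gbp7 also held 2 GAS matches each. Of 32851 promoters of the same length in the table, 2.98% held the ISRE core, 7.02% the GAS and 0.332% both. The core lay 59 to 50 bases before the start in Gbp2, 165 to 156 in Gbp5 and 53 to 44 in Gbp7. Distances are from the RefSeq starts, which differ from the gene spans given above. The Gbp2 core and the whole Gbp5 stretch lie within those spans. In Gbp3 a pair of overlapping cores spanned 45 to 30 bases before the start, and a further annotated start of Gbp3 (chr3:142560106-142560355) had no match to either motif. The Gbp2b promoter held 1 core and no GAS. A match is a description of the letters and not evidence that a factor binds there.

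Per length of exon, Gbp2 was the most abundant member in all 12 groups. At 6 h it stood at 11897 ± 542 normalized counts per kb in KO cells with PAMP RNA, 9384 ± 35.9 in WT cells with PAMP RNA, 1048 ± 25.6 in KO mock cells and 1270.1 ± 59.6 in WT mock cells (SD, n = 3 each). GBP2 is a prenylated member that coats the vacuole of Toxoplasma gondii in mouse cells. Gbp3 came next at 6 h, with 2589 ± 71.0 normalized counts per kb in KO and 1944 ± 74.6 in WT cells with PAMP RNA. Gbp10 was the lowest, with 8.73 ± 4.05 in KO and 5.94 ± 1.98 in WT cells with PAMP RNA.

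The order of the levels between these ends differed between stimulated and mock cells. With PAMP RNA at 6 h it ran Gbp5, Gbp7, Gbp4, Gbp9, Gbp6, Gbp8 and Gbp11 in both genotypes, and the libraries of Gbp5 and Gbp7 overlapped per kb, as did those of Gbp9 and Gbp6. In mock cells at 6 h it ran Gbp7, Gbp9, Gbp8, Gbp5, Gbp4, Gbp6 and Gbp11 in both genotypes. There Gbp8 and Gbp5 overlapped in both genotypes, Gbp4 and Gbp6 in KO cells, and Gbp9 and Gbp8 in WT cells. Gbp5 stood at 1332 ± 19.0 normalized counts per kb in KO and 944 ± 19.4 in WT cells with PAMP RNA, above Gbp8 at 231 ± 3.10 in KO and 175 ± 13.1 in WT cells. In mock cells Gbp5 had 32.8 ± 3.15 in KO and 45.4 ± 6.82 in WT cells, levels that overlapped those of Gbp8.

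**Figure D1:**
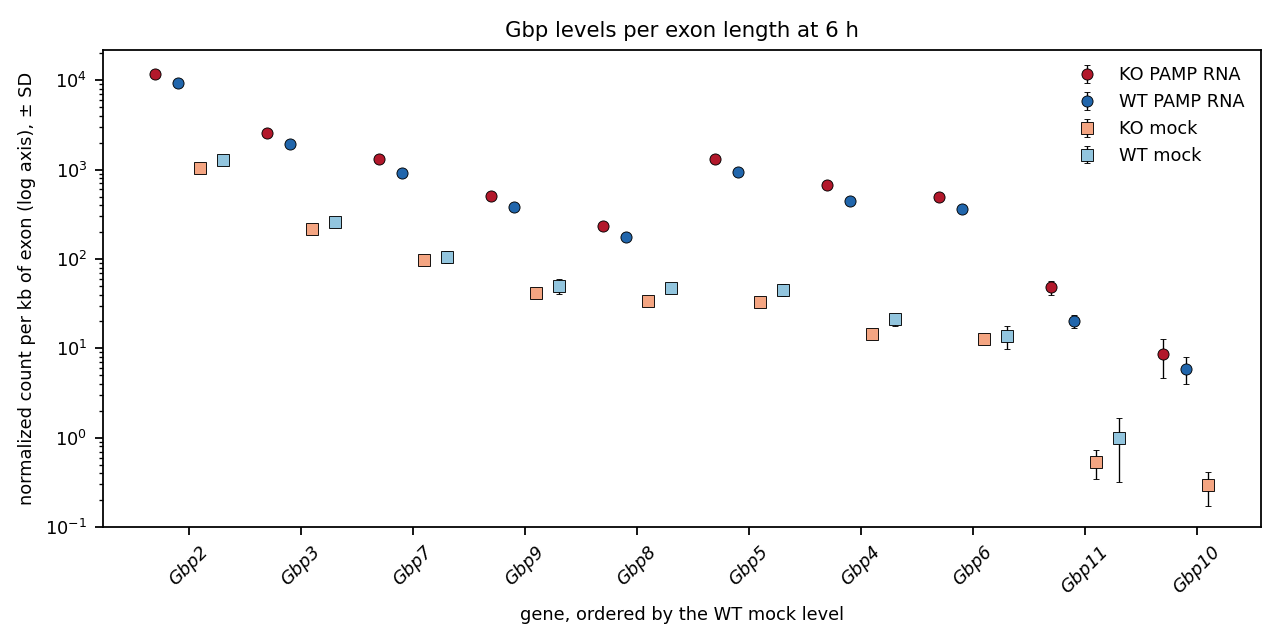
Mean normalized count per kb of exon (log axis, error bars SD, n = 3) of each Gbp gene at 6 h, ordered by the WT mock level, with KO PAMP RNA, WT PAMP RNA, KO mock and WT mock from left to right. Gbp2 is highest in all 4 groups, and Gbp5, Gbp4 and Gbp6 stand below Gbp8 or level with it in mock cells and above it with PAMP RNA. Gbp10 in WT mock cells is at 0 and is not drawn.

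After 1 h Gbp5 alone among the tested members differed between PAMP RNA and mock cells. GBP5 is a prenylated member that has been linked to the NLRP3 and AIM2 inflammasomes in mouse macrophages. In KO cells Gbp5 had 269, 240.3 and 254 normalized counts with PAMP RNA and 115, 128 and 114 in mock cells. In WT cells it had 207, 244 and 226 with PAMP RNA and 170.3, 153 and 136 in mock cells. All 3 libraries with PAMP RNA lay above all 3 mock libraries in each genotype. On the scale log2(normalized count + 1), on which all changes below are given, the KO response was 1.09 (SE 0.08, limma adjusted p = 8.59e-15) and the WT response 0.56 (SE 0.08, limma adjusted p = 4.25e-06). Over all 11853 genes tested, 1.19% rose in KO and 0.801% in WT cells at 1 h. PAMP RNA libraries lay wholly above mock libraries for Gbp5 alone in KO cells, against 7.19% of all tested genes, and for Gbp5, Gbp6 and Gbp11 in WT cells, against 5.21%.

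Of the 10 members 9 entered the test, since Gbp10 had a mean below 10 normalized counts. Gbp11 passed that limit through its PAMP RNA libraries, having a mean of 2.70 in the mock libraries, while the other 8 tested members had means of 52.7 to 1842 in mock cells. The 8 members besides Gbp5 had 1 h responses of -0.17 to 0.31 in KO and -0.08 to 1.40 in WT cells, none of which passed the test. The WT value of 1.40 belongs to Gbp11 (limma adjusted p = 0.0837), with 17 reads over the PAMP RNA libraries and 5 over the mock libraries. It would be called without WT mock replicate 3 (1.79, limma adjusted p = 0.0210). Likewise Gbp6 in KO cells would be called without KO mock replicate 2 (0.57, limma adjusted p = 0.0191) and Gbp3 without KO mock replicate 3 (0.23, limma adjusted p = 0.0369).

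By 3 h every tested member had risen in both genotypes, and each did so at 6 h as well. This is 9 of 9 tested members, against 23.8% of all tested genes at 3 h and 35.1% at 6 h in KO cells, and 19.6% and 32.1% in WT cells. Gbp11, with a mean of 2.70 in mock libraries, was tested only because its PAMP RNA libraries were high. Its rise therefore adds nothing to this count. The median response of the 9 was 3.53 at 3 h and 3.74 at 6 h in KO cells, and 2.90 and 3.12 in WT cells, while the median over all tested genes was -0.03 at both times in KO cells, and -0.03 and -0.02 in WT cells. Under scaling to equal total reads the median over all genes stood at -0.28 and -0.51 in KO cells and at -0.20 and -0.39 in WT cells. The share of called genes that rose at 6 h was 49.0% in each genotype, 40.4% in KO and 40.0% in WT cells under quantile normalization, and 20.2% in KO and 20.8% in WT cells under equal total reads. The 9 members rose under each of these scalings. Every library with PAMP RNA lay above every mock library of its genotype and time for all 10 members, Gbp10 included. Of all tested genes, 25.4% at 3 h and 36.2% at 6 h in KO cells and 24.3% and 33.4% in WT cells were separated in that direction. Gbp10 is not among those tested genes. In RNA from whole cultures, more RNA per cell and more cells that express a gene cannot be told apart.

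**Figure D2:**
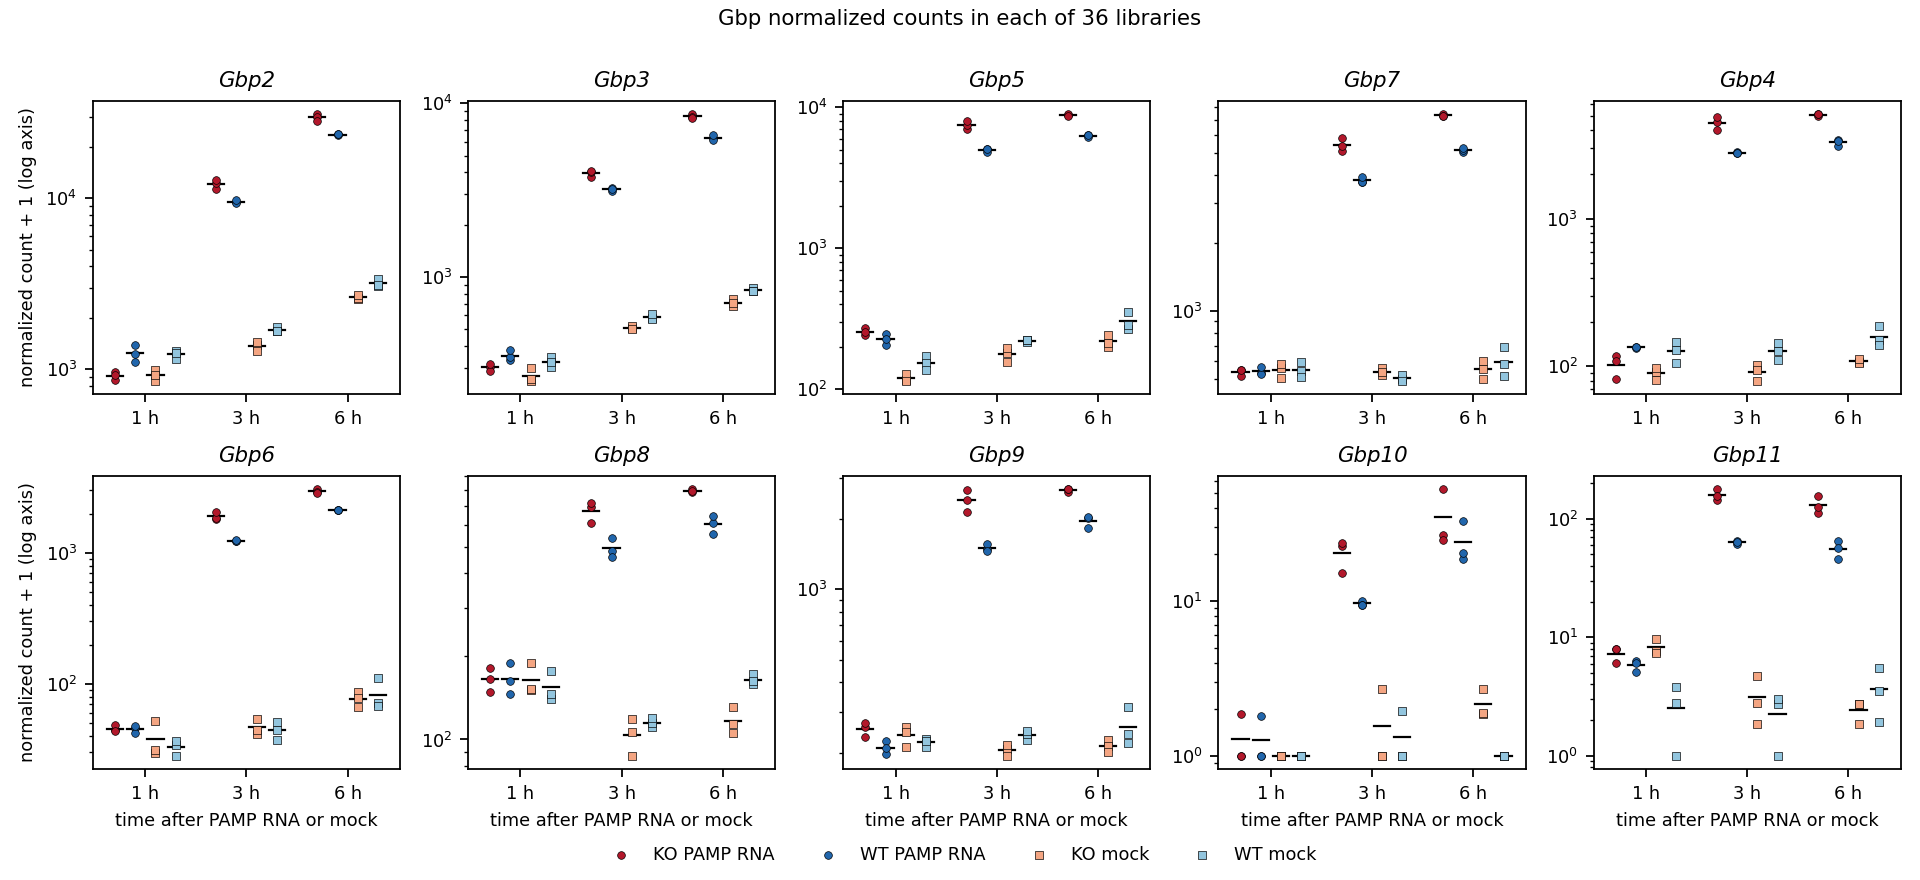
Normalized count + 1 (log axis) of each of the 10 Gbp genes in all 36 libraries at 1, 3 and 6 h, with KO PAMP RNA, WT PAMP RNA, KO mock and WT mock from left to right and bars at the group means. At 3 and 6 h the circles (PAMP RNA) stand above the squares (mock) in every panel, and the KO circles stand above the WT circles except for Gbp10 at 6 h, where they overlap.

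Among the members of chromosome 3, Gbp2 carried the most counts. At 6 h it had 31199, 30112 and 28491 normalized counts with PAMP RNA and 2585, 2617 and 2709 in mock cells of the KO genotype. In WT cells it had 23508, 23646 and 23679 with PAMP RNA and 3367, 3089 and 3130.4 in mock cells. The response was 3.50 in KO (SE 0.06, limma adjusted p = 2.40e-41) and 2.89 in WT cells (SE 0.06, limma adjusted p = 8.12e-38), after 3.15 and 2.48 at 3 h. Mock levels were thus lower, and stimulated levels higher, in KO cells.

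Gbp5 had similar responses at 3 and 6 h. At 3 h KO cells had 7012, 7449.9 and 7972 normalized counts with PAMP RNA and 179, 155 and 195 in mock cells. WT cells had 5080.0, 4833 and 5038 with PAMP RNA and 216, 224 and 221 in mock cells. The response was 5.40 in KO (SE 0.08, limma adjusted p = 9.28e-43) and 4.49 in WT cells (SE 0.08, limma adjusted p = 1.11e-39), which is 42.3-fold and 22.5-fold. At 6 h it was 5.34 in KO and 4.38 in WT cells. The levels with PAMP RNA were higher at 6 h without overlap with 3 h, at 8797, 8979 and 8737 normalized counts in KO cells and 6322, 6119 and 6359 in WT cells.

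Gbp3 and Gbp7 had smaller responses than Gbp5. GBP3 has been seen on the Toxoplasma vacuole in mouse cells, and GBP7 has been linked to assembly of the phagocyte NADPH oxidase. Gbp3 averaged 8452 ± 232 with PAMP RNA and 710.3 ± 36.8 in mock cells of the KO genotype at 6 h, and 6348 ± 244 and 839.7 ± 23.5 in WT cells (normalized counts, SD, n = 3 each). Its response was 2.96 at 3 h and 3.57 at 6 h in KO cells, and 2.44 and 2.92 in WT cells. Gbp7 averaged 7328 ± 80.6 with PAMP RNA and 550.1 ± 51.4 in mock cells of the KO genotype at 6 h, and 5129 ± 94.6 and 593 ± 89.4 in WT cells. Its response was 3.33 and 3.74 in KO cells, and 2.90 and 3.12 in WT cells. Gbp2b, of the same cluster, rose by 2.54 at 3 h and 3.66 at 6 h in KO cells, and by 2.27 and 3.14 in WT cells.

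On chromosome 5, Gbp4 and Gbp6 had low mock levels and large responses. GBP4 has been reported to bind and restrain IRF7, an interferon-inducing transcription factor, and GBP6 to protect mouse macrophages against bacteria. At 6 h Gbp4 had 4975, 5131 and 5098 normalized counts with PAMP RNA and 107, 104 and 112 in mock cells of the KO genotype, and 3439, 3133 and 3361 with PAMP RNA and 185, 150.1 and 138 in WT mock cells. The response was 5.54 in KO (SE 0.11, limma adjusted p = 3.36e-39) and 4.39 in WT cells (SE 0.11, limma adjusted p = 7.42e-35), after 5.60 and 4.47 at 3 h. Gbp6 had 3077, 2910.4 and 2873 with PAMP RNA and 66.0, 85.5 and 77.5 in mock cells of the KO genotype at 6 h, and 2139, 2132 and 2135 with PAMP RNA and 109, 69.9 and 66.4 in WT mock cells. The response was 5.26 in KO and 4.73 in WT cells (SE 0.14 each), after 5.36 and 4.80 at 3 h.

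Gbp9 and Gbp8 rose least on chromosome 5. Gbp9 averaged 2653 ± 35.7 with PAMP RNA and 213 ± 12.5 in mock cells of the KO genotype at 6 h, and 1958 ± 112 and 257 ± 48.8 in WT cells. GBP9 has been seen on the Toxoplasma vacuole. Gbp8 averaged 796 ± 10.7 with PAMP RNA and 116 ± 13.0 in mock cells of the KO genotype, and 603 ± 45.2 and 164 ± 7.45 in WT cells. The Gbp9 response at 6 h was 3.63 in KO and 2.94 in WT cells, and that of Gbp8 2.77 and 1.87, the smallest of the 9 in both genotypes.

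Gbp11 and Gbp10 were near 0 in mock cells. At 6 h Gbp11 had 110.4, 155 and 125 normalized counts with PAMP RNA and 0.846, 1.73 and 1.76 in mock cells of the KO genotype. WT cells had 63.7, 45.1 and 55.7 with PAMP RNA and 2.52, 0.932 and 4.49 in mock cells. The KO groups held 296 and 5 reads and the WT groups 135 and 9, so the depth-adjusted ratio of PAMP RNA to mock was 89.7 in KO (95% interval 38.0 to 278) and 20.6 in WT cells (10.5 to 46.0). The intervals are exact binomial intervals that cover counting error only. The fitted responses of 5.75 in KO and 4.05 in WT cells depend on the pseudocount, since mock counts lie near it.

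Gbp10, whose knockdown in mouse macrophages has been reported to weaken defence against bacteria, had 1 read in KO and 1 in WT cells with PAMP RNA at 1 h. At 3 h it had 14.2, 21.6 and 22.6 normalized counts in KO and 9.06, 8.44 and 8.48 in WT cells with PAMP RNA. At 6 h it had 51.9, 25.8 and 23.8 in KO and 31.8, 17.8 and 19.4 in WT cells with PAMP RNA. In mock cells at 6 h KO libraries held 4 reads and WT libraries 0. The ratio of PAMP RNA to mock at 6 h was 29.2 in KO cells (95% interval 10.9 to 110), and in WT cells the level was at least 26.1-fold higher, taking 3 reads in the whole group as the floor. In the 12 libraries with PAMP RNA at 3 and 6 h the reads of Gbp10 were 0.681% to 1.69% of those of Gbp6, with which it shares sequence.

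The responses of most members were larger in KO than in WT cells. At 3 h the KO response exceeded the WT response in 7 of 9 tested members, against 2.58% of all tested genes. The differences were 1.13 for Gbp4, 0.91 for Gbp5, 0.88 for Gbp9, 0.66 for Gbp2, 0.60 for Gbp8, 0.51 for Gbp3 and 0.43 for Gbp7. At 6 h it did so in 8 of 9, against 6.67% of all tested genes. Gbp11 is among these 8, but it was tested only because its PAMP RNA libraries were high. It therefore adds nothing to that count. The median over the 9 was 0.66 at 3 h and 0.69 at 6 h, beside 0.01 and 0.02 over all tested genes. The fitted differences of all 9 tested members were above 0 at both times, also under each of the other scalings, filters, pseudocounts and tools tried. Of all genes whose responses were called different, 82.3% at 3 h and 63.6% at 6 h had the larger response in KO cells, against 64.0% and 42.5% under quantile normalization and 48.5% and 23.3% under equal total reads. Gbp10, which is fitted only without the filter on low values, gave 0.90 at 3 h and -0.59 at 6 h there (limma adjusted p = 0.633 and 0.629). With edgeR and DESeq2 included its values ran from 0.16 to 0.90 at 3 h and from -2.91 to -0.59 at 6 h, none of them called.

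**Figure D3:**
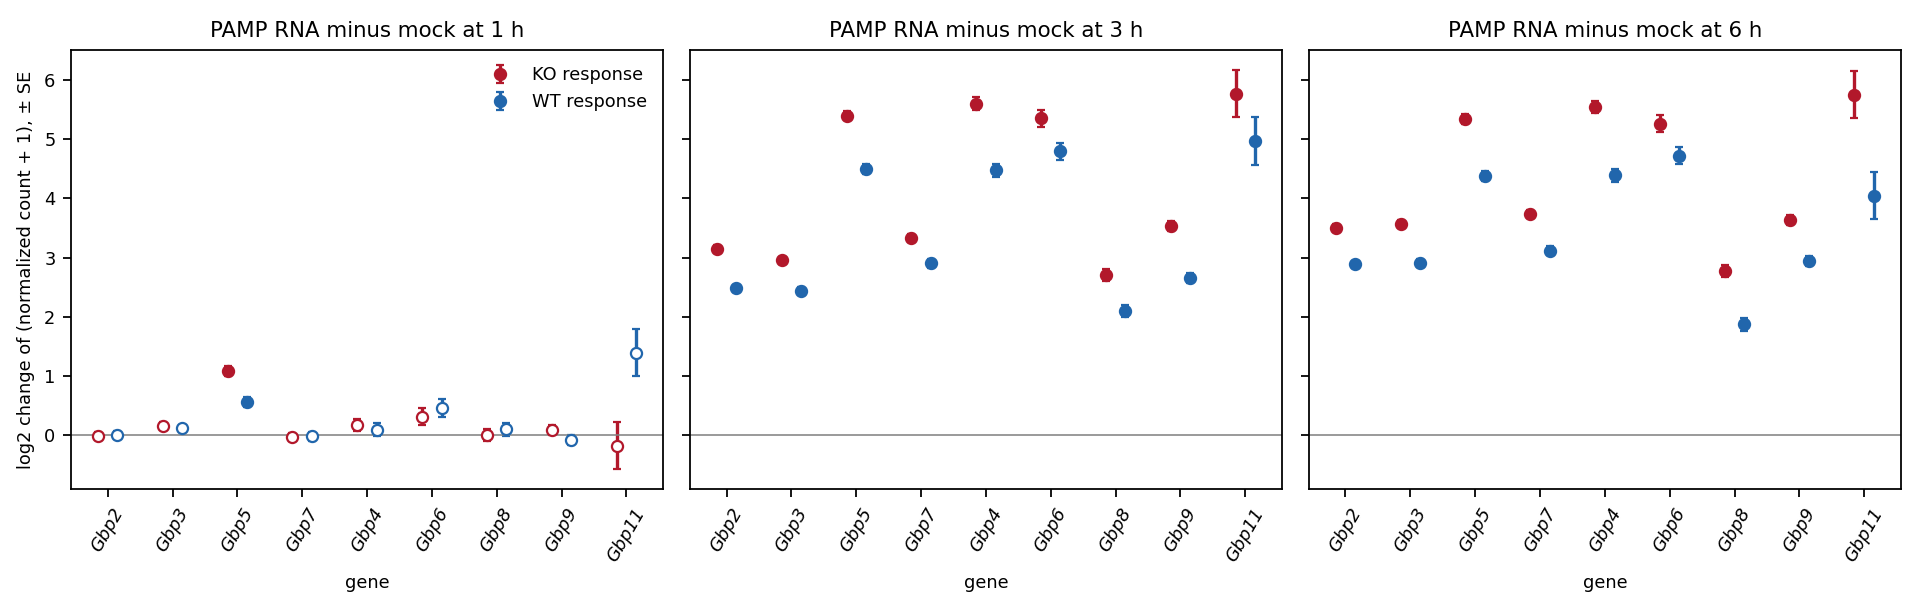
Response to PAMP RNA (difference of log2(normalized count + 1) from mock, error bars SE from limma) of the 9 tested Gbp genes at 1, 3 and 6 h, KO left of WT. Filled symbols passed an adjusted p of 0.05 and open ones did not. At 1 h Gbp5 alone is filled, and at 3 and 6 h all symbols are filled and each KO symbol lies above the WT symbol.

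Apart from Gbp11, Gbp4 had the largest called difference, 1.15 at 6 h (SE 0.15, limma adjusted p = 5.90e-07). Its 3 KO libraries with PAMP RNA lay above the 3 WT libraries with PAMP RNA at 3 and 6 h. At 6 h KO minus WT was 0.62 with PAMP RNA and -0.54 in mock cells, so both parts entered the difference. Gbp5 differed by 0.96 at 6 h (SE 0.12, limma adjusted p = 6.62e-08), made of 0.50 with PAMP RNA and -0.46 in mock cells. Gbp7 differed by 0.62 (SE 0.10, limma adjusted p = 1.85e-05), with 0.51 in the stimulated and -0.10 in the mock part. For Gbp2 the difference of 0.62 held 0.34 and -0.28, and for Gbp3 the difference of 0.66 held 0.41 and -0.24. Gbp8 differed by 0.90 (0.40 and -0.50) and Gbp9 by 0.69 (0.44 and -0.25).

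Gbp6 and Gbp11 stood at the edge of the test. The Gbp6 responses differed by 0.56 at 3 h (SE 0.20, limma adjusted p = 0.151) and 0.54 at 6 h (SE 0.20, limma adjusted p = 0.0855), but edgeR on the recovered reads called both (0.60, adjusted p = 0.0253, and 0.58, adjusted p = 0.00193). DESeq2 called both as well (0.61, adjusted p = 0.0181, and 0.58, adjusted p = 0.00303). The fit of only the groups compared called the 3 h value (0.56, limma adjusted p = 0.0236). The 6 h value was also called without WT mock replicate 3 (0.67, limma adjusted p = 0.0345). Gbp11 differed by 0.80 at 3 h (limma adjusted p = 0.613) and by 1.70 at 6 h (SE 0.56, limma adjusted p = 0.0420). The 6 h call was lost under 5 other settings (1.49 to 2.07, adjusted p 0.0579 to 0.111) and without any 1 of 8 libraries (1.35 to 1.80, limma adjusted p 0.0542 to 0.150). These were WT mock replicates 1 and 3, WT PAMP replicates 2 and 3, KO mock replicates 1 and 2, and KO PAMP replicates 2 and 3, all at 6 h. At 3 h the Gbp8 call was lost without KO mock replicate 2 (0.48, limma adjusted p = 0.0727) or KO PAMP replicate 3 (0.56, limma adjusted p = 0.0521), and under equal total reads (0.53, limma adjusted p = 0.0555). At that time the Gbp7 call was lost under quantile normalization (0.34, limma adjusted p = 0.0585), and Gbp11 was called with a pseudocount of 5 (1.08, limma adjusted p = 0.0298).

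At 1 h Gbp5 was the 1 member whose responses differed, by 0.53 (SE 0.12, limma adjusted p = 0.0277), against 0.118% of all tested genes. KO minus WT was 0.17 with PAMP RNA and -0.36 in mock cells, so the larger part came from the lower KO mock level. The PAMP RNA libraries of the genotypes overlapped. The call was lost under 4 other settings (0.52 to 0.55, adjusted p 0.0537 to 0.262). It was also lost without any 1 of 8 libraries (0.45 to 0.53, limma adjusted p 0.0630 to 0.201), namely replicates 1 and 2 of WT mock, 1 and 3 of WT PAMP, 1 and 3 of KO mock and 1 and 3 of KO PAMP at 1 h. Gbp2b gave differences of 0.28 at 3 h and 0.51 at 6 h that did not pass (limma adjusted p = 0.668 and 0.123), and edgeR called the second (adjusted p = 0.010). The second was also called by DESeq2 (adjusted p = 0.0307) and in the fit of only the groups compared (limma adjusted p = 0.0171).

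Taken by level, in the same PAMP RNA libraries that enter the differences above, all 9 tested members were higher in KO than in WT cells given PAMP RNA both at 3 h and 6 h, against 12.7% and 13.7% of all tested genes. The differences ran from 0.31 (Gbp3) to 1.32 (Gbp11) at 3 h and from 0.34 (Gbp2) to 1.23 (Gbp11) at 6 h. All 10 members were separated at 3 h and 9 at 6 h, where Gbp10 overlapped, against 20.6% and 20% of all tested genes. Gbp10 is not among the tested genes, and Gbp11 entered them only because its PAMP RNA libraries were high. Gbp11 therefore adds nothing to these counts. Summed over the 10 members the libraries held 64340 to 67733 normalized counts in KO and 49018 to 49819 in WT cells with PAMP RNA at 6 h. The Gbp11 call was lost at 3 h without KO PAMP replicate 2 (1.23, limma adjusted p = 0.0548), and at 6 h without WT PAMP replicate 2 (1.10, limma adjusted p = 0.0797) or KO PAMP replicate 2 (1.10, limma adjusted p = 0.0786). It was also lost with a pseudocount of 0.5, at 3 h (1.32, limma adjusted p = 0.0516) and at 6 h (1.24, limma adjusted p = 0.0665). The Gbp6 call at 6 h was lost under quantile normalization (0.29, limma adjusted p = 0.178), under equal total reads (0.36, limma adjusted p = 0.0650) and without KO PAMP replicate 1 (0.44, limma adjusted p = 0.0540).

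Marker genes of other states also differed between the genotypes. The 10 dendritic-cell markers summed to 49770 to 49884 normalized counts in KO and 65226 to 66502 in WT cells with PAMP RNA at 6 h, and the 7 macrophage markers in the table to 19933 to 20774 in KO and 16013 to 17809 in WT cells. The dendritic sum mostly follows Cd74, H2-Aa, H2-Ab1 and Ccr7, with medians of 19399, 9219, 7467 and 5434 over all libraries. Zbtb46, Batf3, Flt3 and Cd209a, with medians of 279, 311, 7.91 and 3.39, hardly enter it. The macrophage sum holds Fcgr1, which ranged from 384 to 7679 normalized counts over all libraries. In mock cells at 6 h the dendritic sum was 38438 to 39653 in KO and 54666 to 56469 in WT cells, and the macrophage sum 16095 to 16896 in KO and 14955 to 15460 in WT cells. The genotypes did not overlap in either sum at these groups. In mock cells at 1 h the macrophage sums did overlap, at 13361 to 14099 in KO and 12658 to 13646 in WT cells. They overlapped in mock cells at 3 h as well, at 12660 to 13726 in KO and 11878 to 12782 in WT cells. The part of these marker differences in the Gbp results was not tested.

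**Figure D4:**
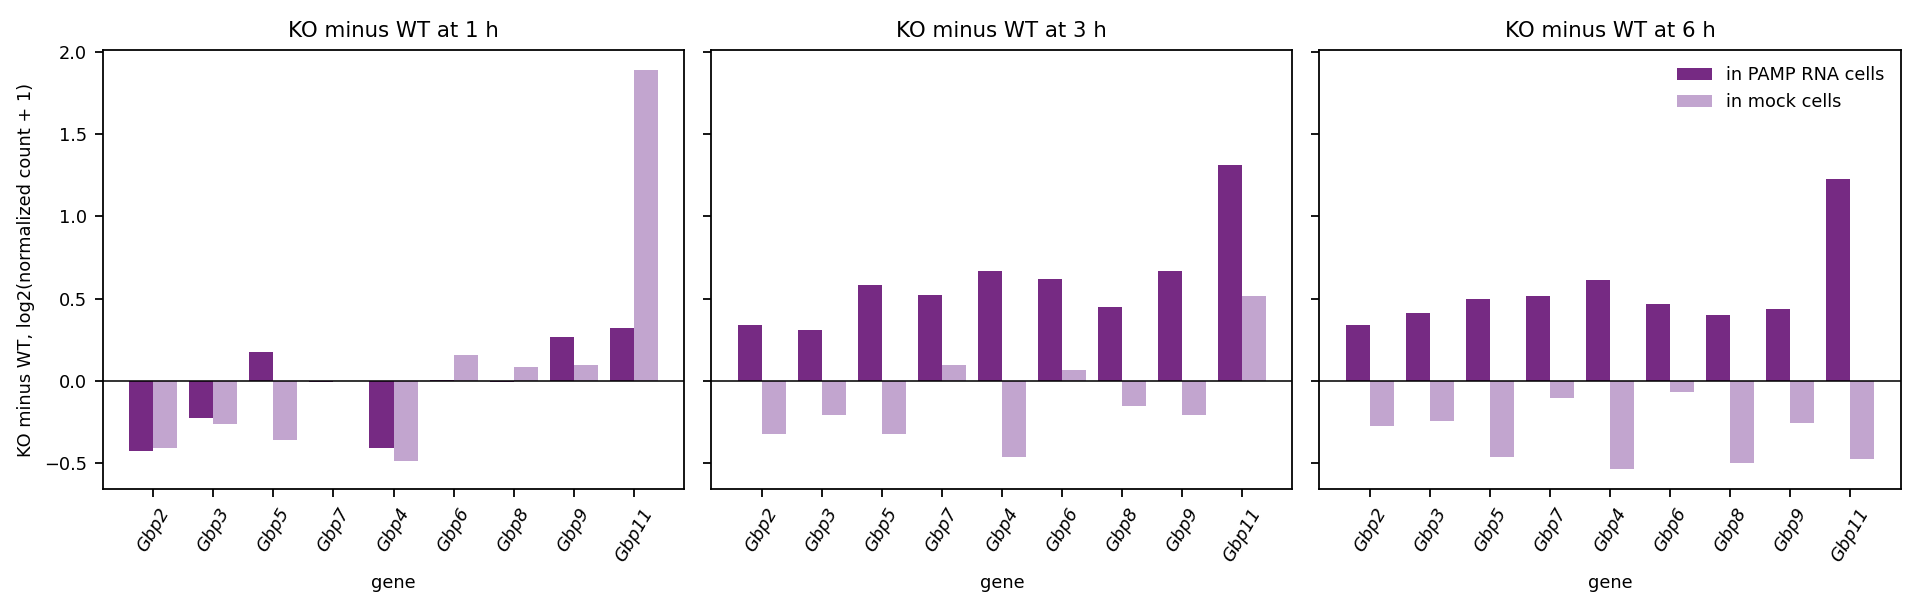
Difference KO minus WT in log2(normalized count + 1) of the 9 tested Gbp genes at 1, 3 and 6 h, with cells given PAMP RNA in dark bars left of mock cells in light bars. At 3 and 6 h all dark bars are above 0, while the light bars of Gbp2, Gbp3, Gbp4, Gbp5, Gbp8 and Gbp9 are below 0.

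In mock cells several members were lower in KO cells. Averaged over the 3 times, 5 of 9 tested members were lower in KO than in WT mock cells, against 11.7% of all tested genes, and 1 was higher, against 10.5%. Gbp4 fell by 0.50 (SE 0.06, limma adjusted p = 1.52e-08), Gbp5 by 0.38, Gbp2 by 0.34, Gbp3 by 0.24 and Gbp8 by 0.19. Gbp9 (-0.12), Gbp6 (0.05) and Gbp7 (-0.00) did not pass. The member that was higher is Gbp11, by 0.64 (limma adjusted p = 0.0365), which rests on 26 reads in KO and 5 reads in WT mock cells at 1 h. That call was lost under 5 other settings (0.29 to 0.65, adjusted p 0.0788 to 0.439) and without any 1 of 7 libraries (0.45 to 0.61, limma adjusted p 0.0644 to 0.139), namely WT mock 1 h replicate 2, KO mock 1 h replicate 2, the replicates 3 of WT and KO mock at 3 h, WT mock 6 h replicate 2, and KO mock 6 h replicates 2 and 3. The Gbp8 call was lost without WT mock 1 h replicate 1, KO mock 3 h replicate 2 or KO mock 6 h replicate 3 (-0.17 to -0.15, limma adjusted p 0.0556 to 0.0771), with DESeq2 (-0.18, adjusted p = 0.0501) and in the fit of only the groups compared (-0.19, limma adjusted p = 0.0532). The average over times hides unlike values, since KO minus WT in mock cells was 0.08 at 1 h and -0.50 at 6 h for Gbp8, and 1.89 at 1 h and -0.47 at 6 h for Gbp11. Gbp9 was called without KO mock 1 h replicate 2 (-0.14) or WT mock 6 h replicate 2 (-0.16).

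Several members also rose in mock cells between 1 and 6 h of culture. Gbp2 averaged 2637 ± 64.3 normalized counts at 6 h and 924 ± 68.2 at 1 h in KO mock cells, and 3196 ± 150.0 at 6 h and 1224 ± 61.9 at 1 h in WT mock cells, a rise of 1.51 in KO and 1.38 in WT cells. Gbp3 rose by 1.40 in KO and 1.38 in WT mock cells, Gbp6 by 1.07 in KO and 1.30 in WT, and Gbp5 by 0.86 in KO and 0.97 in WT. Gbp4 rose by 0.27 in KO and 0.32 in WT cells, calls that were lost without KO mock 1 h replicate 1 (0.20) or KO mock 6 h replicate 3 (0.24), and without WT mock 1 h replicate 3 (0.20) or WT mock 6 h replicate 1 (0.20). The KO call of Gbp4 was also lost without the filter, under equal total reads and with edgeR (limma or edgeR adjusted p 0.0581 to 0.0804). Its WT call was lost in the fit of only the groups compared (limma adjusted p = 0.0720). In KO mock cells Gbp8 fell by 0.49 (limma adjusted p = 9.47e-05) and Gbp11 by 1.76 (limma adjusted p = 0.000162). In all, 5 of 9 rose and 2 fell in KO mock cells, against 30.3% and 32.4% of all tested genes, and 6 of 9 rose in WT mock cells, against 30%. The sixth was Gbp9 (0.20, limma adjusted p = 0.0394), not called without WT mock 6 h replicate 1 (0.05), WT mock 1 h replicate 2 (0.17) or WT mock 1 h replicate 3 (0.21). Nor was it called under 3 other settings (0.15 to 0.20, limma adjusted p 0.0796 to 0.170). Calls were gained by Gbp7 without WT mock 6 h replicate 2 (0.21) and by Gbp11 without WT mock 1 h replicate 3 or WT mock 6 h replicate 2 (1.00 each). Gbp9 in KO mock cells was called as a fall without KO mock 1 h replicate 1 (-0.23) and under equal total reads (-0.21).

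Between 3 and 6 h the responses of Gbp2 and Gbp3 grew further in both genotypes. Relative to the mock cells of each time, the gain was 0.36 in KO and 0.40 in WT cells for Gbp2 (SE 0.08 each, limma adjusted p = 0.000557 and 0.000161). For Gbp3 it was 0.61 in KO and 0.47 in WT cells (SE 0.08 each, limma adjusted p = 3.26e-08 and 8.67e-06). Gbp7 gained 0.41 in KO cells (SE 0.10, limma adjusted p = 0.000747) and had 0.22 in WT cells, which did not pass (limma adjusted p = 0.0809) except without WT mock 6 h replicate 1 (0.33, limma adjusted p = 0.00367). This makes 3 of 9 in KO cells, against 22.8% of all tested genes, and 2 of 9 in WT cells, against 19.3%, shares close to the background. For Gbp4, Gbp5 and Gbp6 the values were -0.11 to -0.06 over both genotypes, with no call. Under quantile normalization Gbp4 fell by 0.46 in KO and 0.43 in WT cells and Gbp5 by 0.55 in KO and 0.51 in WT cells, and under equal total reads Gbp5 fell by 0.29 in KO and 0.31 in WT cells, all called by limma. Gbp8 in WT cells (-0.23, no call) fell by 0.38 and 0.42 under those scalings, with calls. Gbp2 turned to -0.30 in KO and -0.20 in WT cells under quantile normalization, and the gains of Gbp3 and Gbp7 lost their call there. Under equal total reads Gbp2 (0.12) and Gbp7 (0.17) in KO cells lost theirs, so the gain after 3 h depended on the scaling. Gbp9 in WT cells (0.28, limma adjusted p = 0.0651) was called without WT mock 6 h replicate 1 (0.43) or WT PAMP 6 h replicate 3 (0.33), and by edgeR (0.27).

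Most listed genes of interferon signalling rose as well. Of 17 listed genes of interferon signalling and its transcription factors 16 were tested, and at 6 h 15 rose and 1 fell in each genotype, where 35.1% of all tested genes rose and 36.5% fell in KO cells, and 32.1% rose and 33.3% fell in WT cells. The median of the list was 1.34 in KO and 1.03 in WT cells. Ifnb1, the gene of interferon beta, averaged 956 ± 28.1 normalized counts in KO and 571 ± 38.9 in WT cells with PAMP RNA at 1 h, and 0.543 in KO and 0.321 in WT mock cells, from 2 and 1 reads. Batf2, a partner of IRF1, rose at 6 h by 3.96 in KO and 3.15 in WT cells, and Socs1, an inhibitor of JAK signalling, by 5.38 in KO and 4.55 in WT cells. The responses of 11 of the 16 were larger in KO cells at 6 h, against 6.67% of all tested genes, and that of 1 was smaller, against 3.81%. Among the larger were Batf2 by 0.81 (limma adjusted p = 0.0116) and Socs1 by 0.83 (limma adjusted p = 0.00336). At 6 h Ifnb1 had 1782 ± 98.6 normalized counts in KO and 1287 ± 90.6 in WT cells with PAMP RNA (SD, n = 3 each), and the libraries did not overlap. The mock groups held 6 reads in KO and 3 reads in WT cells, so the fitted difference of its responses, -0.32 (limma adjusted p = 0.746), depends on the pseudocount.

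The IRG GTPases, which act with GBPs on vacuoles, rose throughout. Of 12 listed IRG genes 11 were tested, and all 11 rose at 3 and 6 h in both genotypes, against 23.8% and 35.1% of all tested genes in KO and 19.6% and 32.1% in WT cells, with a 6 h median of 4.99 in KO and 4.39 in WT cells. Iigp1 averaged 9089 ± 456 normalized counts with PAMP RNA and 29.1 ± 3.38 in mock cells of the KO genotype at 6 h, and 5146 ± 563 and 26.9 ± 9.26 in WT cells. Tgtp1 averaged 1464 ± 161 and 3.44 ± 1.45 in KO cells, and 963 ± 159 and 4.12 ± 0.796 in WT cells. Their responses at 6 h differed between the genotypes by 0.67 and 0.87, neither passing the test (limma adjusted p = 0.432 and 0.391), and with so few mock reads the Tgtp1 fold depends on the pseudocount. At 6 h 3 of the 11 IRG genes had a larger response in KO cells, against 6.67% of all tested genes.

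Listed partners of the GBPs moved less evenly. All 11 listed inflammasome and pyroptosis genes were tested, of which 11 rose at 6 h in KO cells, against 35.1% of all tested genes, and 10 in WT cells, against 32.1%, with medians of 1.55 in KO and 1.22 in WT cells. Casp4, the gene of caspase-11, rose by 3.62 in KO and 3.01 in WT cells, a difference of 0.61 (limma adjusted p = 0.00850). Casp1 rose by 2.17 in KO and 1.91 in WT cells, Il18 by 2.47 in KO and 2.81 in WT, and Il1b by 1.58 in KO and 1.61 in WT. Of 14 tested genes of autophagy conjugation and ubiquitin, 8 rose and 3 fell in KO cells at 6 h, against 35.1% and 36.5% of all tested genes. In WT cells 8 rose and 4 fell, against 32.1% and 33.3%. Trim21, a ubiquitin ligase, rose by 3.04 in KO and 2.59 in WT cells, and Atg3, the conjugating enzyme of LC3, by 0.93 and 0.72. Gabarapl1, an LC3 relative, fell by 0.70 in KO and 0.61 in WT cells.

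Of 5 tested genes of the enzymes that prenylate proteins such as GBP2 and GBP5, 1 rose and 2 fell at 6 h in each genotype. Over all tested genes 35.1% rose and 36.5% fell in KO cells, and 32.1% rose and 33.3% fell in WT cells. Pggt1b, a subunit of the prenyl transferase GGTase-I, rose by 0.46 in KO and 0.31 in WT cells. Fntb, a subunit of the enzyme that adds farnesyl groups, fell by 0.57 in KO and 0.52 in WT cells, and Icmt, which methylates prenylated ends, by 0.22 in KO and 0.25 in WT cells. Of the atlastins, relatives of GBPs that shape the endoplasmic reticulum, Atl3 rose by 0.84 in KO and 0.77 in WT cells at 6 h.

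The 9 tested members resembled each other across the 12 group means. Pearson's r of their log2 means ran from 0.843 to 0.997 over 36 pairs, with a median of 0.967. These means share libraries and are not independent. Among 9781 other genes with a mean of at least 50 normalized counts, the 5 whose group means were closest to the mean profile of the members were Daxx (r = 0.999), Ifih1, Tgtp1, Stat2 and Vcpip1 (r = 0.997 each). Daxx, a histone chaperone gene, averaged 5429 ± 204 normalized counts with PAMP RNA and 393 ± 25.9 in mock cells of the KO genotype at 6 h, and 3848 ± 146 and 429 ± 85.1 in WT cells. Ifih1 encodes the RNA sensor MDA5 and Stat2 a subunit of ISGF3.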

How the data were processed

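RNA from 36 cultures was sequenced as single reads of 100 bases on an Illumina HiSeq instrument, per the labels' protocols. The values used are a signal deposited by the authors: gene read counts divided by 1 size factor per library. TopHat, Cufflinks, DESeq2 and the build GRCm38 (mm10) are named without versions or roles, per the submitters' processing notes. The gene annotation is not stated. In each library 100% of the values were whole multiples of 1 step, within 0.01 read, so whole reads were recovered.

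Genes with a mean of at least 10 normalized counts (11853 of 24127; 4887 had no read) were tested on log2(normalized count + 1) with limma 3.58.1 (trend, R 4.3.3). All 12 group means were fitted together, p-values were adjusted by Benjamini and Hochberg over all tested genes in each of 16 comparisons, and an adjusted p below 0.05 was a call. The test was tried on simulated data. Alternatives were pseudocounts of 0.5 and 5, no filter, a mean of at least 50, quantile normalization, equal total reads, a fit of only the groups compared, a replicate block, each library left out, and edgeR 4.0.16 and DESeq2 1.42.0 on the recovered reads. The labels call the 3 libraries of a group biological triplicates plated per condition, and nothing there says that they came from separate mice, so p-values measure the spread between these cultures.

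The members and gene lists were chosen with earlier results of these data known. Named were all members and Gbp2b, up to 4 genes of each list with the largest absolute WT change at 6 h, Dhx58, and the 5 genes most like the family; some items that this rule names are not reported here. Levels per kb divide by the union of exons in GENCODE M21. Ratios of reads for Gbp10 and Gbp11 have exact 95% binomial intervals.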

Additional observations from a re-analysis of the deposited data

Results flagged for a closer look

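The values below mark Gbp genes whose response to PAMP RNA differed between the genotypes, or between 3 and 6 h, by a test of the difference itself (limma, adjusted over all tested genes). At 1 h the KO response exceeded the WT response for Gbp5 by 0.53 (log2), with KO minus WT at 0.17 with PAMP RNA and -0.36 in mock cells. At 3 h it did so for Gbp4 by 1.13, Gbp5 by 0.91, Gbp9 by 0.88, Gbp2 by 0.66, Gbp8 by 0.60, Gbp3 by 0.51 and Gbp7 by 0.43. At 6 h it did so for Gbp11 by 1.70, Gbp4 by 1.15, Gbp5 by 0.96, Gbp8 by 0.90, Gbp9 by 0.69, Gbp3 by 0.66, Gbp2 by 0.62 and Gbp7 by 0.62. The responses at 6 h exceeded those at 3 h in KO cells for Gbp3 by 0.61, Gbp7 by 0.41 and Gbp2 by 0.36, and in WT cells for Gbp3 by 0.47 and Gbp2 by 0.40. The gains of Gbp2 turned negative under quantile normalization. The call of Gbp5 at 1 h was lost under 4 other settings and without any 1 of 8 libraries. That of Gbp11 at 6 h was lost under 5 other settings and without any 1 of 8 libraries.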

How the results depend on the processing

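The responses at 3 and 6 h were called for all 9 tested members under every setting that tested them, each library left out included. The filter at a mean of at least 50 left out Gbp11, whose mean was 36.0. The call for Gbp5 in the genotype difference at 1 h went to 0 members without the filter, under equal total reads, with DESeq2 and in the fit of only the groups compared. The cause was not tested. Between 3 and 6 h the WT response was called for 4 members (2 rose, 2 fell) under equal total reads, against 2, and quantile normalization reversed Gbp2 to -0.20 in WT and -0.30 in KO cells, for which the cause was not tested. With 1 library left out, called members numbered 1 to 2 for each response at 1 h, 0 to 1 for the genotype difference at 1 h, 6 to 7 at 3 h and 7 to 8 at 6 h, 8 to 9 for KO minus WT with PAMP RNA at 3 and 6 h, 4 to 6 in mock cells, 3 in KO and 2 to 4 in WT cells for 6 h against 3 h, and 6 to 7 in KO and 4 to 8 in WT mock cells for 6 h against 1 h. Replicate numbers did not pair the libraries: the correlation of deviations between same-numbered libraries had a median of 0.0017 over 198 pairs, and 12 of 36 libraries correlated best with their own number. With the replicate block the genotype difference was called for 7 members at 3 h and 8 at 6 h, as without it. Over the settings other than leaving out a library, 1526 results for single genes kept their side of the threshold, 34 lost and 19 gained a call, and 2 called results reversed. The 1526 include values without a call that changed sign. Gbp7 in WT cells, for example, ran from -0.09 to 0.22 for the response at 6 h minus 3 h. These totals cover the tested members and Gbp2b. Depth limits Gbp10 and Gbp11, whose mock groups held 0 to 26 reads.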

Other observations

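Mir6381, annotated antisense within Gbp2, averaged 608 ± 75.0 normalized counts in KO and 415 ± 40.7 in WT cells with PAMP RNA at 6 h, and 57.6 ± 5.25 in KO mock and 52.4 ± 7.09 in WT mock cells (SD, n = 3 each). Without strand these reads cannot be told apart from those of Gbp2. Gbp2b averaged 243 ± 39.4 normalized counts in KO and 253 ± 16.1 in WT cells with PAMP RNA at 3 h, where the 10 members all lay higher in KO cells.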
